A study of Rattus norvegicus with 18 samples.

Results

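Trimethylation of lysine 4 of histone H3 (H3K4me3) was followed at 3 peaks on rat chromosome 17 that lie at genes of the histone cluster 1: *Hist1h1d*, *LOC684762* and *Hist1h3b*. They are 3 of the 67 H3K4me3 peaks between 43.6 and 45.0 Mb of that chromosome in the Rnor_6.0 build, and of 16364 merged peaks in all. The 3 were chosen by their lower H3K4me3 signal 30 min after washout of cAMP than in Control in these same libraries. Their values between Control and 30 min are therefore given as a description, with no test, and so are those at 3.5 h, which share libraries with that comparison. The other 64 peaks of the interval were set beside them.

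Core histones such as H3 are the spools around which DNA is wound, and H1 is the linker histone that binds DNA between the spools. Most of their genes lie in clusters, are carried in many near-identical copies and are transcribed chiefly during S phase, when new chromatin has to be packed. H3K4me3 marks the start sites of active genes and is removed by demethylases of the KDM5 family, which need Fe(II).

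Primary Schwann cells, the glia of peripheral nerve, came from the sciatic nerves of 3-month-old Fisher rats. Cells were left without the drug (Control) or exposed for 30 min to 8-CPT-cAMP, a form of cAMP that crosses membranes, and collected 30 min or 3.5 h after it was washed out. Its dose is 100 μM in the labels' sample characteristics but 50 μM in their treatment protocol. Each condition has 3 H3K4me3 ChIP-seq libraries and 3 libraries of input DNA, and the labels do not say whether replicates are separate cultures, so errors and p-values describe the spread between these libraries, which may be technical. The Control replicates differed by less than independent sampling would give (chi-square of 0.664 to 0.917 per degree of freedom, against up to 4.20 at 3.5 h). They hold different numbers of reads outside peaks and were kept as 3 libraries. Since they enter the estimate of spread shared by all comparisons, standard errors can be too small. Why they are so alike was not tested. ChIP libraries held 13762905 to 17160987 reads in peaks. Schwann cell markers were not analysed here, since no gene annotation of the build was at hand. A lower ChIP signal can mean fewer cells with the mark or less of it per cell, which cannot be told apart in bulk chromatin.

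The *Hist1h1d* peak (Peak_382) spans chr17:43734080-43735704 and is 1625 bp wide. The *LOC684762* peak (Peak_9936) spans chr17:43806917-43807660 and is 744 bp wide. The *Hist1h3b* peak (Peak_4211) spans chr17:44839563-44840288 and is 726 bp wide. From centre to centre, *Hist1h1d* and *LOC684762* lie 72.4 kb apart with 8 other peaks between them, and *Hist1h3b* lies 1033 kb further along with 43 peaks between. Each gene name was tied to its peak by matching the study's averages with averages of the deposited counts, where the second-best match was off by at least 184 times as much.

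In RefSeq the former *LOC684762* is now called *H3c13*, an H3 gene that lies between *H2bc6* and *H2ac23*. *Hist1h3b* is gene 680498, also for H3, between *Hist1h2ai* and the H1 gene *H1f5*. *Hist1h1d*, an H1 name, is an older name of both *H1f4* (gene 201097) and *H4f3* (gene 684828), so that peak could not be tied to 1 RefSeq gene. All have other histone genes as neighbours or lie among them, and reads that mapped to more than 1 place were removed before counting, which for genes with near-identical copies can leave reads out.

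The 250 bases before the start of each gene are shown because H3K4me3 is a promoter mark and because histone promoters are built from a few short elements. They come from RefSeq on the GRCr8 build, not from the build of the peaks, and whether the peaks cover them was not examined. On GRCr8 *Hist1h3b* lies much further from *H3c13* than the 1033 kb between their peaks, so distances differ between the builds. There *H1f4* lies before *H3c13*, as Peak_382 lies before Peak_9936, and *H4f3* lies after *H3c13*. Capitals mark a CCAAT box, a TATA-type element (TATAAA as well as TATATA) or the letters AAACACA, on either strand.
H1f4, chr17:41914175-41914424, plus strand: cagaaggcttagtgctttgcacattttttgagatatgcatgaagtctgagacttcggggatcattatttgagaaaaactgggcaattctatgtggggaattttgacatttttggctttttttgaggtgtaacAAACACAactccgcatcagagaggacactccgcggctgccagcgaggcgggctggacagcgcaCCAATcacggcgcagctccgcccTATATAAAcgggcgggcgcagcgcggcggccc
H4f3, chr17:41980342-41980591, minus strand: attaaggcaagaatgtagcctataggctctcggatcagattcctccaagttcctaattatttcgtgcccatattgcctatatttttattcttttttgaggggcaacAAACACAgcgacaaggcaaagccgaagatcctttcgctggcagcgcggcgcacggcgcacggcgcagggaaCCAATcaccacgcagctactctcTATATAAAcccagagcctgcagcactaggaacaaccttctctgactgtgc
H3c13, chr17:41960010-41960259, minus strand: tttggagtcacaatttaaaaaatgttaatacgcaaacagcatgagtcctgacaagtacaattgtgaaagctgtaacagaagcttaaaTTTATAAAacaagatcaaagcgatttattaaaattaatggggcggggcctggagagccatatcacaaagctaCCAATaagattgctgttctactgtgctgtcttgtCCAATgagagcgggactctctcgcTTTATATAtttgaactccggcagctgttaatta
Hist1h3b, chr17:47418946-47419195, plus strand: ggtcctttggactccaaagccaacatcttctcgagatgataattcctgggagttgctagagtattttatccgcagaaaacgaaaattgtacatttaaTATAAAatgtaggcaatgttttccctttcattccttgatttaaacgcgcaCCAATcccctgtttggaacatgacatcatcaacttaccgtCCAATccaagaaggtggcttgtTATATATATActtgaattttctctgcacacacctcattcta

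CCAAT, the box bound by NF-Y, was in all 4 windows, once in each H1 candidate and 2 times in each H3 gene. It was in 34.3% of 27457 RefSeq promoter windows and in 34 of 37 windows of histone genes on chromosome 17 (91.9%). A TATA-type element was also in all 4 (both spellings overlap in places), against 16.2% of all windows and 62.2% of the histone windows. AAACACA, the core of the element known from H1 promoters, was in both H1 candidates and in neither H3 gene. Over all windows its share was 6.07%, and over the histone windows 27.0%, with 5 of 6 H1 genes among them. TGACGTCA, the full cAMP response element, was in none of the 4, in none of the 37 histone windows and in 1.70% of all windows. The H1 candidates held 52.4% and 49.6% G and C and the H3 genes 38.0% and 38.4%, against medians of 52.0% over all windows and 42.4% over the histone windows. These are matches of letters in 1 window per gene and do not show that a factor was bound.

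Relative to the reads in all peaks, the 3 histone peaks carried less H3K4me3 30 min after washout than in Control. They were back near the Control level at 3.5 h. Signals are given in CPM, reads in a peak per 1000000 reads in peaks after TMM normalization. Levels of different peaks are compared in RCPM, in which the reads are divided by the width of the peak in kb and TMM is not applied. Both scale each library to its reads in peaks, so a change shared by all peaks does not show in them. The paper reported a global fall of H3K4me3 by immunoblot and immunofluorescence, which these values can neither show nor contradict. From its ChIP-seq it also reported more peaks down than up at 30 min. Here edgeR, at an adjusted p-value under 0.05, called 46 peaks lower and 87 higher at 30 min. With only the compared conditions it called 1068 and 976. The paper's ChIP-seq methods state no scaling or cutoff for its counts, so they may not be like for like.

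*LOC684762* changed most. Its peak held 357, 404 and 371 reads in the Control libraries, 349, 298 and 319 at 30 min and 392, 418 and 373 at 3.5 h. After scaling, the Control libraries had 26.1, 28.1 and 25.7 CPM, the 30 min libraries 20.4, 19.5 and 19.8 and the 3.5 h libraries 25.2, 28.8 and 26.2. Every 30 min library lay below every Control and every 3.5 h library, while the Control and 3.5 h libraries overlapped. The means of Control, 30 min and 3.5 h were 26.6 ± 1.28, 19.9 ± 0.486 and 26.7 ± 1.84 CPM (SD, n = 3 each). The log2 fold change was -0.42 (SE 0.07) from Control to 30 min, a change of -25.1%, and 0.42 (SE 0.07) from 30 min to 3.5 h. Between 3.5 h and Control it was 0.01, with a nominal 95% interval of -0.12 to 0.13.

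The other H3 gene, *Hist1h3b*, had 455, 482 and 480 reads in Control, 495, 430 and 449 at 30 min and 515, 497 and 466 at 3.5 h. Its CPM values were 33.2, 33.5 and 33.2 in Control, 29.0, 28.1 and 27.9 at 30 min and 33.1, 34.2 and 32.7 at 3.5 h. The 30 min libraries again stood below all others and the remaining conditions overlapped. Means were 33.3 ± 0.148, 28.3 ± 0.580 and 33.3 ± 0.760 CPM (SD, n = 3). The log2 fold change was -0.23 (SE 0.05) at 30 min, a change of -14.9%, and 0.23 (SE 0.05) from 30 min to 3.5 h. At 3.5 h it was 0.00 against Control, with a nominal 95% interval of -0.09 to 0.09.

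The linker histone peak, *Hist1h1d*, held 869, 915 and 907 reads in Control, 938, 821 and 882 at 30 min and 963, 915 and 814 at 3.5 h. Scaled to CPM, the Control libraries gave 63.4, 63.5 and 62.8, the 30 min libraries 54.9, 53.7 and 54.8 and the 3.5 h libraries 61.8, 62.9 and 57.2. The 30 min libraries lay lowest here too, but replicates 1 and 3 of 3.5 h were below every Control library, with replicate 3 the nearest to the 30 min values. Means were 63.3 ± 0.416, 54.5 ± 0.694 and 60.7 ± 3.05 CPM (SD, n = 3). The log2 fold change was -0.21 (SE 0.04) at 30 min, a change of -13.8%, and 0.16 (SE 0.04) from 30 min to 3.5 h. Against Control it was -0.06 at 3.5 h, with a nominal 95% interval of -0.13 to 0.01. The intervals of the 3 peaks can be too narrow. For 3.5 h against Control edgeR gave SEs of 0.066 (*LOC684762*), 0.045 (*Hist1h3b*) and 0.036 (*Hist1h1d*). DESeq2 gave 0.093, 0.079 and 0.058.

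**Figure D1:**
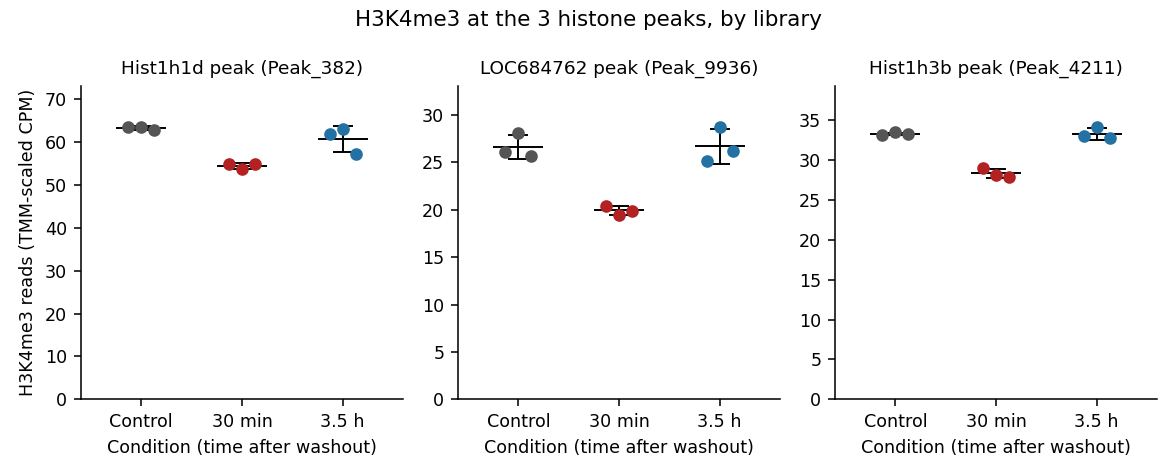
H3K4me3 signal in CPM (y axis) of the *Hist1h1d*, *LOC684762* and *Hist1h3b* peaks in each ChIP library, by condition on the x axis. Points are libraries and bars the mean ± SD of 3. In each panel the 30 min libraries sit below all Control and 3.5 h libraries.

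In edgeR's quasi-likelihood test over all 16364 peaks with a Benjamini-Hochberg adjusted p-value under 0.05, the 3 histone peaks were among the 46 called lower at 30 min, 0.281% of all peaks. That share moves with the libraries in the fit: 1068 peaks were called lower and 976 higher with only the 6 compared libraries, 583 and 671 without replicate 1 of 3.5 h, and 772 and 515 without replicate 3 of 3.5 h. The choice of the peaks favours that call, so nothing is read from it. Of the 3, 2 were called without replicate 2 of 3.5 h (14 of all peaks then called lower). The calls also rested on all 6 libraries compared: 0 of the 3 were called when any 1 Control or 30 min library was left out (1 to 10 of all peaks were then called lower), and DESeq2 gave none of them an adjusted p-value, since its own filter left 14911 of 16364 peaks without one. Libraries that did not overlap, with 30 min below Control, were found at 17.5% of all peaks. A dip, with every 30 min library below every Control and every 3.5 h library, was found at 9.32% of all peaks, at 6 of the other 64 in the interval and at all 3 histone peaks. From 30 min to 3.5 h the 3 were called higher, as were 17.9% of all peaks, and their libraries did not overlap, with 3.5 h higher, as at 22.9%. The same 30 min libraries served to choose the peaks, so nothing is read from these counts either. A lower mean CPM at 30 min than in Control was found at 43.1% of all peaks, and a lower one at 3.5 h than at 30 min at 49.0%. Between 3.5 h and Control 0 of the 3 were called, against 17.8% of all peaks lower and 13.7% higher, and all 3 overlapped, while the 3.5 h libraries stood above Control at 22.8% of all peaks and below at 24.8%.

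Per length, *Hist1h3b* was the highest of the 3 in every condition, at 45.7 ± 0.230 RCPM in Control, 39.0 ± 0.631 at 30 min and 46.1 ± 1.21 at 3.5 h (SD, n = 3). *Hist1h1d* followed with 38.8 ± 0.237, 33.5 ± 0.537 and 37.5 ± 2.02 RCPM. *LOC684762* was the lowest with 35.6 ± 1.72, 26.8 ± 0.624 and 36.0 ± 2.57 RCPM. The *Hist1h3b* libraries did not overlap those of the other two in any condition. The *Hist1h1d* and *LOC684762* libraries did not overlap in Control (38.5 to 39.0 against 34.4 to 37.6 RCPM) or at 30 min (32.9 to 34.0 against 26.1 to 27.3), but did at 3.5 h (35.2 to 39.0 against 34.0 to 38.9). In Control, *Hist1h3b*, *Hist1h1d* and *LOC684762* ranked 2, 7 and 11 of the 67 peaks by RCPM and stood above 77.4%, 64.2% and 57.6% of all peaks. After duplicate removal a peak can hold at most 1 read per start position and strand. With only positions inside the peak taken, the mean library's reads came to 27.4% of these at *Hist1h1d*, 24.5% at *LOC684762* and 32.7% at *Hist1h3b*. Reads that begin outside a peak and reach into it may be counted too, so the true shares can be lower, more so at narrow peaks.

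On the same relative scale, 0 of the other 64 peaks were called lower at 30 min. Their log2 fold changes ran from -0.16 to 0.93 with a median of 0.02, which was also the median of all 16364 peaks, and 28 were below 0 and 36 above. With edgeR's adjusted p-value, 0 were lower and 1 higher, against 0.281% and 0.532% of all peaks. With only the 6 compared libraries 0 of the 64 were called lower and 8 higher, against 1068 and 976 of all peaks. At an unadjusted p-value under 0.05, 5 were lower and 11 higher, and in DESeq2, which gave none of the 64 an adjusted p-value, 0 and 9 were. The 3 histone peaks held the 3 lowest log2 fold changes of the 67, an order that follows from how they were chosen. Just above them stood Peak_388 at -0.16, Peak_4202 at -0.15 and Peak_379 at -0.14. Among all peaks *LOC684762*, *Hist1h3b* and *Hist1h1d* had the 18th, 43rd and 50th lowest values.

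**Figure D2:**
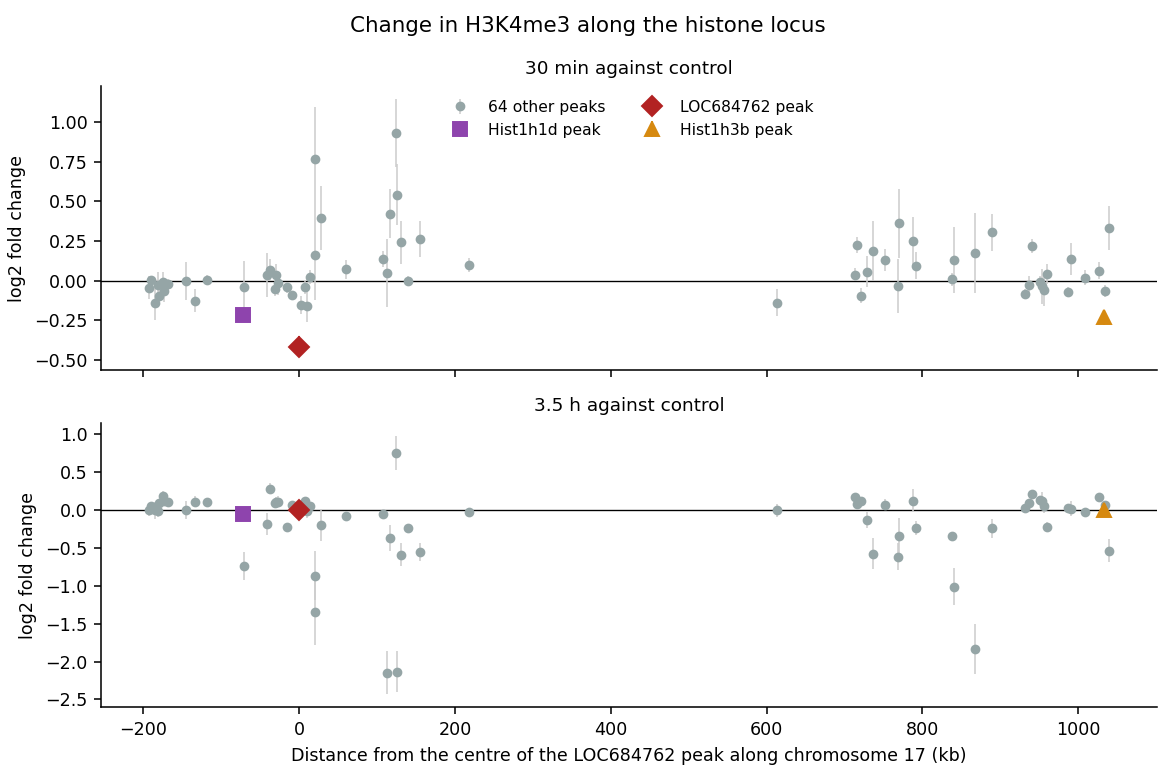
Log2 fold change of H3K4me3 (y axis, bars are the standard error of the fit) of the 67 peaks by distance in kb from the centre of the *LOC684762* peak (x axis), with 30 min against Control above and 3.5 h against Control below. *Hist1h1d*, *LOC684762* and *Hist1h3b* lie at -0.21, -0.42 and -0.23 in the upper panel and at -0.06, 0.01 and 0.00 in the lower one, where the other peaks run from -2.15 to 0.75.

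Peak_397 (chr17:44747593-44749134) was the single other peak called at 30 min. Its CPM values were 32.9, 32.8 and 33.7 in Control, 39.2, 37.2 and 39.3 at 30 min and 37.6, 38.5 and 39.2 at 3.5 h. It therefore rose where the histone peaks were low, with a log2 fold change of 0.22 (SE 0.04, edgeR adjusted p = 0.0382), and at 3.5 h it stood at 0.21 above Control (adjusted p = 0.00368). At 30 min it was called in the fits without replicate 1 or replicate 3 of 3.5 h but not when replicate 2 of 3.5 h or any Control or 30 min library was left out. Nor was it called with all reads, inside and outside peaks, as library size, with loess offsets or in the fit of ChIP against input.

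The peaks next to the histone peaks were read out in the same test. Peak_4202 begins 846 bp after *LOC684762* and had a log2 fold change of -0.15 (SE 0.05, edgeR adjusted p = 0.144) at 30 min, and Peak_9935, 8004 bp before it, had -0.09 (adjusted p = 0.140). Reads in *LOC684762* were 0.975, 1.01 and 0.935 times those in Peak_4202 in the Control libraries, 0.839, 0.795 and 0.802 times at 30 min and 0.951, 1.0 and 0.964 times at 3.5 h. The 30 min ratios lay below all others. Ratios of a histone peak to any neighbour use the reads by which the histone peaks were chosen, so a low 30 min ratio follows in part from the choice.

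*Hist1h3b* lies 495 bp before Peak_4212, which had -0.07 (adjusted p = 0.313) at 30 min, and 4728 bp after Peak_4210, which had 0.06 (adjusted p = 0.511). Its reads were 0.566 ± 0.0172 times those of Peak_4212 in Control, 0.505 ± 0.00780 at 30 min and 0.542 ± 0.0157 at 3.5 h (SD, n = 3). Against Peak_4210 the ratios were 1.16 ± 0.0392, 0.941 ± 0.0161 and 1.03 ± 0.0278. With either neighbour the 30 min ratios were below all others. With Peak_4210, which rose by 0.17 from Control to 3.5 h (adjusted p = 0.0295), the 3.5 h ratios also lay below all Control ratios, at 0.996 to 1.05 against 1.13 to 1.20.

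*Hist1h1d* is 108 bp from Peak_383, a small peak of 4.60 ± 0.639 CPM in Control that had -0.04 (SE 0.17, adjusted p = 0.900) at 30 min and fell by 0.69 on the log2 scale from 30 min to 3.5 h (adjusted p = 0.00908). On its other side Peak_4198, 43977 bp away, had 0.01 (adjusted p = 0.935) at 30 min and rose by 0.10 from 30 min to 3.5 h (adjusted p = 0.0135). Reads in *Hist1h1d* were 0.786 ± 0.00874 times those of Peak_4198 in Control, 0.675 ± 0.00419 at 30 min and 0.700 ± 0.0565 at 3.5 h. Here the 3.5 h ratios, 0.635 to 0.734, stayed below the Control range of 0.776 to 0.792 and overlapped the 30 min range of 0.670 to 0.678. Against Peak_383 the 30 min ratios, 10.8 to 14.7, overlapped the Control range of 11.9 to 15.1. At 3.5 h, after Peak_383 had fallen, they were 20.5 to 23.9.

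**Figure D3:**
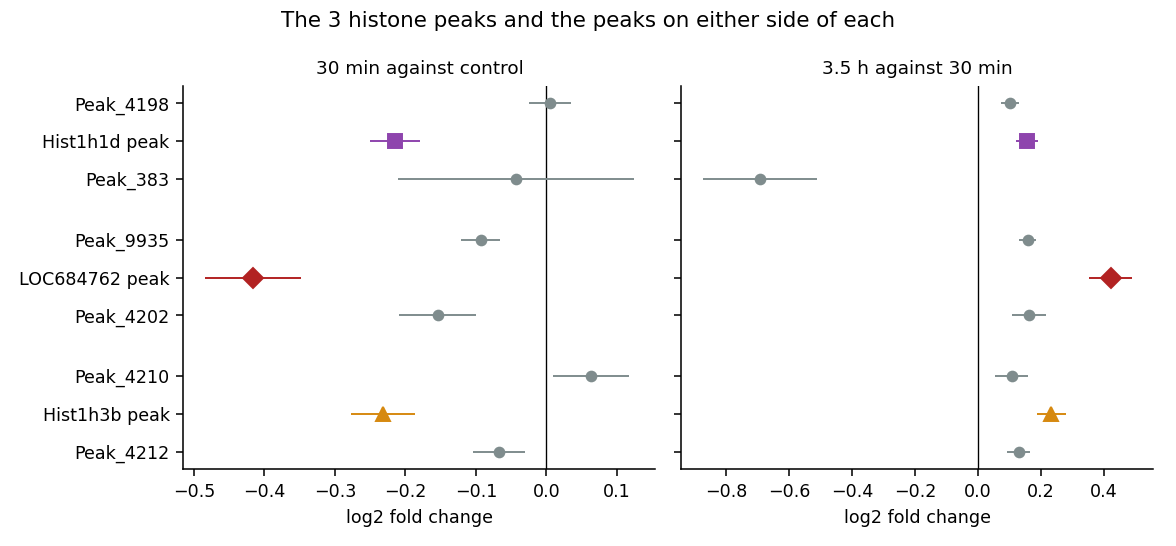
Log2 fold change of H3K4me3 (x axis, bars are the standard error of the fit) of each named histone peak and the nearest peak on either side (y axis), with 30 min against Control on the left and 3.5 h against 30 min on the right. On the left the histone peaks lie between -0.42 and -0.21 and their neighbours between -0.15 and 0.06, and on the right Peak_383 at -0.69 is the only one below 0.

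The histone peaks were also scaled to the summed reads of the 64 other peaks, a measure that does not depend on library size but uses the same reads by which they were chosen. *LOC684762* held 1.48% ± 0.0659 of that sum in Control, 1.09% ± 0.0144 at 30 min and 1.51% ± 0.105 at 3.5 h (SD, n = 3). *Hist1h3b* held 1.85% ± 0.0116, 1.55% ± 0.00757 and 1.88% ± 0.0383. *Hist1h1d* held 3.52% ± 0.00460, 2.99% ± 0.0451 and 3.42% ± 0.113. As log2 changes from Control to 30 min these are -0.44, -0.26 and -0.24. For each, the 30 min libraries stood below all Control and 3.5 h libraries, and the 3.5 h libraries overlapped Control.

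The sum of the 64 peaks itself was 0.179% ± 0.00107 of the reads in peaks in Control, 0.182% ± 0.00215 at 30 min and 0.178% ± 0.00410 at 3.5 h. The two-sided exact permutation test over 10 splits gave p = 0.1 for 30 min against Control, the smallest it can give, p = 1.0 for 3.5 h against Control and p = 0.2 for 3.5 h against 30 min. As a share of all reads, inside and outside peaks, it was lower at 30 min than in Control, at 0.139% against 0.146% (exact p = 0.1), and 0.151% at 3.5 h, so the direction turns with the total used. With all reads as library size the log2 fold changes of *LOC684762*, *Hist1h3b* and *Hist1h1d* at 30 min were -0.51, -0.32 and -0.31, while the median of all peaks moved from 0.02 to -0.07.

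At 3.5 h many of the other peaks had changed, and the histone peaks stood near Control. Most other peaks of like height were not called either. Of the 8 at least as tall in Control RCPM as *LOC684762*, 1 was called lower than in Control and 1 higher, with a median of 0.04. Of the 64, 15 were called lower than in Control (23.4%) and 10 higher (15.6%), with log2 fold changes from -2.15 to 0.75 and a median of 0.00, and of all peaks 17.8% and 13.7%. From 30 min to 3.5 h, 24 were called lower (37.5%) and 17 higher (26.6%), with a median of -0.03, against 23.3% and 17.9% of all peaks. The largest change was at Peak_9944 (chr17:43932027-43932557), where the Control libraries had 4.23, 3.19 and 3.95 CPM, the 30 min libraries 6.80, 5.23 and 4.47 and the 3.5 h libraries 0.835, 0.619 and 1.12. It fell by 2.67 on the log2 scale from 30 min to 3.5 h (adjusted p = 2.27e-05). Peak_9941 fell by 2.20 (adjusted p = 0.000132), Peak_9938 by 2.11 (adjusted p = 0.00133), Peak_9953 by 2.00 (adjusted p = 0.000503), Peak_396 by 1.14 (adjusted p = 0.00234) and Peak_389 by 1.02 (adjusted p = 0.0189). All 6 were small peaks, of 4.45 to 10.5 RCPM in Control, well under the 35.6 RCPM of *LOC684762*. Peak_9943, the lowest of the interval with 2.55 RCPM, rose by 0.75 from Control to 3.5 h (adjusted p = 0.0228). Peak_384, at 4.61 RCPM, had 0.03 (adjusted p = 0.911) at 30 min and -0.22 (adjusted p = 0.233) from 30 min to 3.5 h.

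The 3 tallest of the other peaks bear more on the histone peaks, which are tall themselves. Peak_386, at 47.9 RCPM in Control, had -0.04 (adjusted p = 0.606) at 30 min and rose by 0.16 from 30 min to 3.5 h (adjusted p = 0.00602). Peak_9934, at 41.7 RCPM, had -0.05 (adjusted p = 0.565) and then rose by 0.15 (adjusted p = 0.0194). Peak_9952, at 40.8 RCPM, had 0.01 (adjusted p = 0.940) and fell by 0.35 (adjusted p = 0.000156).

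Change was set against level in the interval. Across the 64 other peaks, Control RCPM on the log2 scale and the log2 fold change at 30 min gave a Pearson r of -0.68 (Spearman rho -0.59), against -0.57 (-0.69) across all 16364 peaks. From 30 min to 3.5 h r was 0.62 (rho 0.64), against 0.41 (0.34) across all peaks, and from Control to 3.5 h it was 0.47 (0.47) against 0.17 (-0.01). The points share their libraries, and in the comparisons with Control the Control values enter both axes, so these are descriptions. Among the 16 lowest by RCPM, 14 had a log2 fold change above 0 at 30 min, with a median of 0.25, and 12 were called lower from 30 min to 3.5 h. Among the 16 highest, 12 were below 0 at 30 min, with a median of -0.04, and from 30 min to 3.5 h 10 were called higher and 3 lower. Of the 8 other peaks at least as tall in Control as *LOC684762* (36.3 to 47.9 RCPM), 6 were below 0 at 30 min, with a median of -0.05 and a range of -0.15 to 0.01, and 0 were called with edgeR's test, 2 being lower at an unadjusted p-value under 0.05. With loess offsets *LOC684762*, *Hist1h3b* and *Hist1h1d* stood at -0.50, -0.29 and -0.22 at 30 min. These offsets take out a trend of change with the read count of a peak, not divided by its width. They do not take out the trend with RCPM, and whether the histone peaks depart from that trend was not tested.

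**Figure D4:**
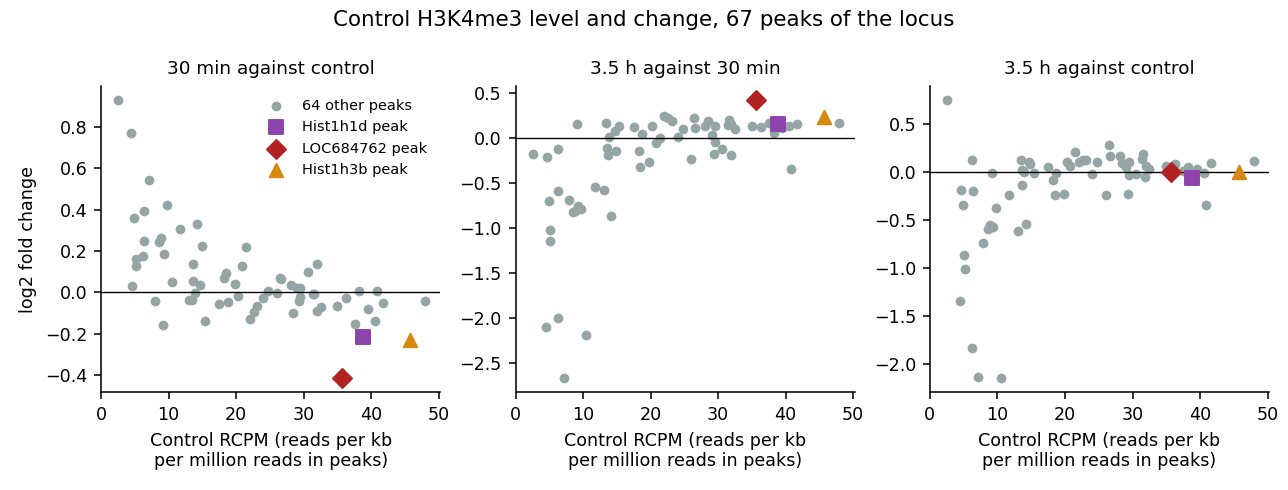
Log2 fold change of H3K4me3 (y axis) of the 67 peaks against their mean level in Control in RCPM (x axis), in a panel for each of the 3 comparisons. Low peaks spread upward at 30 min and mostly downward in both comparisons of 3.5 h, and the histone peaks lie at the tall end, where at 30 min they are under the 8 other peaks at least as tall as *LOC684762*.

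The pattern of the 2 H3 genes over the libraries was alike. Over the 9 ChIP libraries the log2 CPM of *LOC684762* and *Hist1h3b* had a Pearson r of 0.98, and among 16363 peaks each had the highest r with the other, although 1033 kb lie between them. *Hist1h1d* had r = 0.92 with *Hist1h3b* and 0.89 with *LOC684762*, the highest 2 of the interval, but over all peaks its nearest were Peak_003 on chromosome 14 (r = 0.98), Peak_5733 on chromosome 4 (r = 0.96) and Peak_7602 on chromosome 9 (r = 0.96). Peak_4202, next to *LOC684762*, came next in the interval for *Hist1h1d* (r = 0.85), and right after the other H3 gene for *LOC684762* (r = 0.97) and *Hist1h3b* (r = 0.94). Peak_9955 followed with 0.92 for each H3 gene. Outside the interval, Peak_15671 on chromosome 11 was the most like *LOC684762* (r = 0.96), and Peak_3158 on chromosome 10 (r = 0.97) and Peak_4528 on chromosome 1 (r = 0.96) were the most like *Hist1h3b*. The 3 were chosen for 1 shared change, and 9 libraries of 3 conditions leave few degrees of freedom, so these are orders of likeness only.

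Input DNA gave little signal at the 3 peaks. *Hist1h1d* had 3, 1 and 40 input reads in the Control libraries, 6, 2 and 41 at 30 min and 5, 15 and 5 at 3.5 h. *LOC684762* had 1, 1 and 12, then 0, 1 and 17, then 1, 6 and 3. *Hist1h3b* had 1, 1 and 21, then 1, 1 and 25, then 2, 4 and 0. The high counts are those of replicate 3 in Control and at 30 min, and input libraries ranged from 2559138 to 23568332 reads in all. These replicates also held more of their reads in peaks, 2.95% and 3.55% against 1.05% to 2.31% in the other inputs. They weigh most in the pooled input, so the ratios of ChIP to input below rest largely on them. Pooled over the 9 input libraries, the peaks had an input RCPM, here over all reads of the libraries, of 0.811, 0.631 and 0.862, against a median of 0.833 over all peaks (quartiles 0.709 and 0.955) and 0.609 over the other 64. Loss of reads that map to several places would lower input and ChIP alike, and its part in the ChIP values was not tested. H3K4me3 reads exceeded the pooled input, scaled to length and to all reads of the file, 39.1, 31.6 and 39.2 times in Control, 30 min and 3.5 h at *Hist1h1d*, 46.1, 32.5 and 48.6 times at *LOC684762* and 43.3, 34.6 and 45.5 times at *Hist1h3b*. The 3 peaks had too few input reads for edgeR's filter. Among the 3320 peaks that passed, 0 were called between any conditions, and 1, 39 and 38 had an unadjusted p-value under 0.05.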

How the data were processed

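H3K4me3 ChIP and input DNA were sequenced from Schwann cells in 3 conditions, with 3 libraries each. The authors trimmed the reads (Trim Galore), aligned them to Rnor_6.0 with BWA, dropped duplicates and reads with several hits, ran MACS2, filtered and merged its peaks across treatments and counted reads per merged peak with HTSeq. The deposited values are raw counts per peak, without normalization. The single-library files and the combined table were compared at 294642 values, and 0 differed. HTSeq's class lines (11.5% to 24.9% of ChIP reads, 96.5% to 98.9% of input reads) did not enter the main fits. They were counted only where all reads are named as the library size or total, which includes the pooled input levels. All value columns were used (0 left out). Averages the study gives served only to tie 3 gene names to peaks and are not printed.

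Counts were fitted with edgeR 4.0.16 (R 4.3.3) by the quasi-likelihood test on all 9 ChIP libraries, with TMM normalization, filterByExpr, a term for condition and Benjamini-Hochberg adjustment over all peaks at 0.05, and input counts likewise. The fit was tested on simulated data. Intervals are the estimate ± 1.96 SE at the nominal 95% level and can be narrower than the test allows. At Peak_9934 the interval for 3.5 h against Control, 0.006 to 0.188, lies above Control. There edgeR's unadjusted p-value was 0.0653. Single values were compared by exact permutation. RCPM is CPM per kb, without TMM, and 0.5 CPM was added before log2 in correlations. Conditions and replicate numbers came from the sample labels. At 13762905 reads and more per ChIP library, 1 read in a peak is under 0.1 CPM.

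The 3 histone peaks, the interval and the motifs were chosen with earlier results of these data known. The rule for named peaks was the 3 histone peaks, up to 6 called peaks per comparison with the largest change, the nearest peak on either side, the 3 tallest and 3 lowest, and the 3 most alike per histone peak. Alternatives were no TMM, all reads as library size, loess offsets (span 0.3), DESeq2 1.42.0, no filter, at least 10 counts in every library, only the compared conditions, the interaction with input, leaving out each library and a replicate block. The counts of called histone peaks under these were added after the data were seen. Python 3.11.15, numpy 2.4.6, pandas 2.3.3, scipy 1.17.1 and matplotlib 3.10.9 were used.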

Additional observations from a re-analysis of the deposited data

How the results depend on the processing

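The named histone peaks stayed below Control at 30 min in all 18 alternatives. With each library left out, log2 fold changes ran from -0.22 to -0.21 (*Hist1h1d*), -0.44 to -0.38 (*LOC684762*) and -0.25 to -0.22 (*Hist1h3b*). With the interaction with input, *Hist1h1d* stood at -0.011 (SE 0.28), *LOC684762* at -0.41 (SE 0.50) and *Hist1h3b* at -0.10 (SE 0.39). None of the 3 was set apart from Control in that fit. The 3 peaks were chosen for this fall in the same libraries, so staying below Control shows nothing of stability. Their calls did not hold: of 3 called lower, 0 to 3 remained with a library left out (0 without any 1 Control or 30 min library, 3 without replicate 1 or 3 of 3.5 h and 2 without replicate 2) and 0 with the interaction with input. From 30 min to 3.5 h the count of 3, which shares the 30 min libraries used to choose the peaks and so shows nothing of stability, was 3 with any library left out and 0 with the interaction. With all reads as library size the log2 fold changes of *Hist1h1d*, *LOC684762* and *Hist1h3b* were -0.31, -0.51 and -0.32 at 30 min and 0.31, 0.58 and 0.39 from 30 min to 3.5 h, and against Control at 3.5 h *Hist1h1d* stood at 0.0045 and *Hist1h3b* at 0.066. Loess offsets gave -0.50 (*LOC684762*) and -0.29 (*Hist1h3b*) at 30 min and 0.28 (*Hist1h3b*) from 30 min to 3.5 h. The interaction, in which few input reads set the spread, gave -0.011 (*Hist1h1d*) and -0.10 (*Hist1h3b*) at 30 min. At 3.5 h against Control it gave -0.34 (SE 0.34, *Hist1h1d*), -0.60 (SE 0.59, *LOC684762*) and 0.84 (SE 0.58, *Hist1h3b*). From 30 min to 3.5 h it turned *Hist1h1d* to -0.33 and *LOC684762* to -0.19, with *Hist1h3b* at 0.94. With the median of the other peaks as reference the 3 stood at -0.33, -0.52 and -0.34 at 30 min, *Hist1h1d* at -0.095 and *Hist1h3b* at -0.033 at 3.5 h against Control, and at 0.23 and 0.31 from 30 min to 3.5 h. Left-out ranges at 3.5 h against Control and against 30 min were -0.08 to -0.02 and 0.13 to 0.20 (*Hist1h1d*), -0.05 to 0.05 and 0.37 to 0.46 (*LOC684762*) and -0.01 to 0.01 and 0.22 to 0.26 (*Hist1h3b*).

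Of the 64 other peaks, 1 was called higher at 30 min, and 2 without TMM, 0 with all reads, loess offsets or the interaction, 8 with only the compared conditions and 0 to 5 with a library left out (5 without replicate 1 and 3 without replicate 3 of 3.5 h). At 3.5 h against Control 15 were lower (9 to 19 with a library left out, 9 without Control replicate 1) and 10 higher (3 to 11, with 3, 6 and 5 without Control replicate 1, 2 or 3 and 5 and 6 without replicate 2 or 3 of 3.5 h, and 4 in DESeq2). From 30 min to 3.5 h 24 were lower (17 to 25) and 17 higher (11 to 17, with 11 without replicate 2 of 3.5 h, 28 with all reads and 4 in DESeq2). The interaction called 0 in each. With all reads as total, the share held by the other peaks differed by -0.00669 percentage points at 30 min, 0.00514 at 3.5 h and 0.0118 between them, against 0.00326, -0.000726 and -0.00399. Over all peaks that total gave 1668 lower and 7878 higher calls from 30 min to 3.5 h against 3813 and 2928, and 1322 and 2554 at 3.5 h against Control, where TMM gave 2919 and 2249. The cause of these shifts was not tested.

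Same-numbered libraries correlated between -0.21 and 0.35 in their deviations from the group means, and differently numbered ones between -0.24 and 0.36. With 3 libraries per condition this cannot tell whether same-numbered libraries share a culture or batch. With the replicate number as a block, 2 of the 64 other peaks were called higher at 30 min and, over all peaks, 74 lower and 170 higher against 46 and 87. The block moved no other count of the other or the histone peaks by over 1.5 times. With 298 to 963 reads per histone peak and library, differences of a few percent at 3.5 h were not detectable.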
